A study of Mus musculus with 12 samples.

Results

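The genes described here encode the protein-conducting channel of the endoplasmic reticulum (ER) membrane and the proteins that sit beside it. The set held 10 genes, all of them among the 10697 genes of the table, namely Serp1, Sec61a1, Sec61b, Sec61g, Sec62, Sec63, Ssr1, Ssr2, Ssr3 and Ssr4. They were chosen by name from a list of translocon and signal-sequence receptor genes, with their difference between thymol and DMSO already known. That difference is therefore given below as a description. No p-value of a member is given for it, and where a member passed the threshold of the fit over all genes, this is stated beside the share of all genes that did and supports nothing. The cells were primary mouse adult fibroblasts (MAFs), wild type and of the C57BL6/j strain, which grow out of cut pieces of adult tissue in high-glucose medium with serum. In the thymol group, 6 libraries came from cells given 100 µM thymol, a plant phenol dissolved in DMSO, for 24 h. In the DMSO group, 6 libraries came from cells given the same volume of solvent, so DMSO was present in every sample. The labels number the libraries 1 to 6 in each group and do not say whether they came from separate mice or cultures. The spread among these libraries may therefore be technical. Each standard error (SE) below comes from the fit over all genes, which pulls the spread of a gene toward that of genes at similar levels. An SE is therefore not the observed spread of that gene alone.

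Most secreted and membrane proteins enter the ER while they are being made. The signal recognition particle brings the ribosome to the membrane, where the Sec61 channel, built from an alpha, a beta and a gamma subunit, passes the growing chain through or lets it slip sideways into the lipid. Sec62 and Sec63 help the channel to open and serve chains that arrive after synthesis, and Sec63 also recruits the lumenal chaperone BiP. The translocon-associated protein (TRAP) complex, encoded by Ssr1 to Ssr4, assists signal sequences that open the channel poorly. Serp1, also called RAMP4, is a small tail-anchored protein that binds Sec61 beside the ribosome and is a known gene of the ER stress response. Collagen-secreting fibroblasts use this route heavily.

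All reads here mark the 3′ ends of transcripts, and levels are log2 CPM, the log2 of reads relative to scaled library totals (CPM). The 12 libraries held between 5435985 and 9049796 reads over the genes of the table, recovered from the steps of the deposited values. The expected cell type was present, since 11 of the 12 listed fibroblast markers had values, with a median of 10.00 log2 CPM. All 12 listed macrophage markers had values too, with a median of 7.49 log2 CPM, while 1 of 8 endothelial, 1 of 8 keratinocyte and 2 of 8 markers each for muscle, adipocytes and Schwann cells did. In bulk samples such as these, fewer cells of a type and less RNA per cell cannot be told apart.

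The upstream sequences of 8 of the 10 genes were in the RefSeq promoter table (assembly GRCm38.p6), and the 250 bases before each start were searched on both strands for motifs of the ER stress response. No member held the ER stress response element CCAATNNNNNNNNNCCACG, which 0.113% of the 32851 promoters held. None held the second form of that element, ATTGGNCCACG (0.0304% of promoters), the unfolded protein response element core TGACGTGG (0.563%) or the cAMP response element TGACGTCA (1.55%). Its separate parts were common. The CCAAT box occurred in 33.8% of all promoters and in 4 members (Serp1, Ssr3, Sec63 and Sec61g), and CCACG in 28.3% and in 4 members (Serp1, Ssr3, Sec63 and Ssr1). The CCACG letters are also part of the 2 longer elements, as is CCAAT, which the second element holds as its reverse complement ATTGG. In Serp1 both parts lay side by side, CCAAT at 49 to 45 bases and CCACG at 44 to 40 bases before the start, with no gap in place of the 9 bases of the element. An annotated exon of Eif2a, a neighbouring gene, overlaps the searched bases of Serp1, so only 30 of them, around the CCAAT box, are shown. Serp1 and Ssr1 varied together between libraries, Ssr3 did so less steadily and Sec63 ran the other way, as described below, so stretches from these 4 genes are shown 5′ to 3′ on the strand of the gene, with CCAAT and CCACG (or their reverse complements) in capitals. The stretches start and end at chr3:58525914-58525943 for Serp1 (minus strand), chr13:37994218-37994417 for Ssr1 (minus), chr3:65392624-65392803 for Ssr3 (minus) and chr10:42761296-42761495 for Sec63 (plus). The CCAAT box of Sec63, at 230 to 226 bases before the start, and a second CCACG of Serp1, at 154 to 150 bases, lie outside the stretches shown. The matches are descriptions of letters, not binding sites.
Serp1: agcctcggggCCAATCCACGtctggttccc
Ssr1: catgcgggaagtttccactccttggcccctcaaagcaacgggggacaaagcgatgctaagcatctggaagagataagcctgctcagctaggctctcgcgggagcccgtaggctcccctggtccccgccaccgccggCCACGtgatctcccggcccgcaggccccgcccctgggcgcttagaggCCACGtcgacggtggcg
Ssr3: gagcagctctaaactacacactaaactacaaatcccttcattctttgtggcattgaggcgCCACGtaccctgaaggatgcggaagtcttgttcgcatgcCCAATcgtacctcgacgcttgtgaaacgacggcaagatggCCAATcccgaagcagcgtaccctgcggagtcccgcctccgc
Sec63: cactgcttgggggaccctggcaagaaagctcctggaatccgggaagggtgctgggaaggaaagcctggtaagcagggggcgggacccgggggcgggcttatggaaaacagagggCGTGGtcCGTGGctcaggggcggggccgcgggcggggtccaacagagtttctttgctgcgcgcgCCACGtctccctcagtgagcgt

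The levels in the DMSO libraries give the relative reads of each gene with the solvent alone, which the choice of genes did not use. In DMSO the order of mean log2 CPM was Sec62 (8.76), Sec61a1 (8.61), Ssr3 (8.35), Serp1 (8.29), Ssr4 (8.27), Sec63 (8.14), Ssr1 (7.92), Sec61b (6.46), Ssr2 (5.81) and Sec61g (2.63). Because the method gives about 1 read per transcript, these levels were compared without a correction for length. Read levels were not equal across the genes. The Sec61 alpha subunit stood at 4.46 times the beta subunit and 63.5 times the gamma subunit. The levels of the beta and gamma genes are uncertain, as described below. Within TRAP, Ssr2 stood apart from the other 3 genes, with Ssr1 at 4.33 times, Ssr4 at 5.52 times and Ssr3 at 5.81 times its level.

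Neighbours in this order, which the means themselves set, were compared within libraries by an exact two-sided sign-flip permutation test over the 6 DMSO libraries. For 6 of the 9 neighbouring pairs the higher gene was higher in 6 of 6 libraries, which gives the smallest p this test allows (exact p = 0.0312, adjusted p = 0.0469 over the 9 pairs). The gap between Ssr2 and Sec61g was 3.18 ± 0.38 log2 units and that between Ssr1 and Sec61b was 1.46 ± 0.17 (SD, n = 6 libraries). The differences between Ssr3 and Serp1 (0.06 ± 0.11, exact p = 0.25, adjusted p = 0.281), between Serp1 and Ssr4 (0.02 ± 0.13, exact p = 0.812, adjusted p = 0.812) and between Ssr4 and Sec63 (0.13 ± 0.15, exact p = 0.0938, adjusted p = 0.121) were not separated by their spread. The order of neighbours in this stretch is therefore not settled. In thymol the order was the same except that Serp1 stood above Ssr3.

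Sec61g and Sec61b need care. Sec61g rested on 26 to 87 reads per library, against 1730 to 3565 for Serp1 and 2422 to 3920 for Sec62. In the annotation GENCODE vM21, 34.5% of the 736 different 60-base windows in the last 300 bases of Sec61g coding transcripts also occurred in another gene, all 4 of them pseudogenes. The share was 38.6% of 389 windows for Sec61b, shared with 3 other genes, 2 of which are pseudogenes. None of the other 8 members shared such a window. Reads that fit several genes are handled by the counting step, so the levels of these 2 genes are uncertain, and whether they were lowered was not tested. At the 3′ ends, no other gene overlapped the last 500 bases on the same strand, and only Sec61a1 had a gene there on the other strand, Gm44170.

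**Figure D1:**
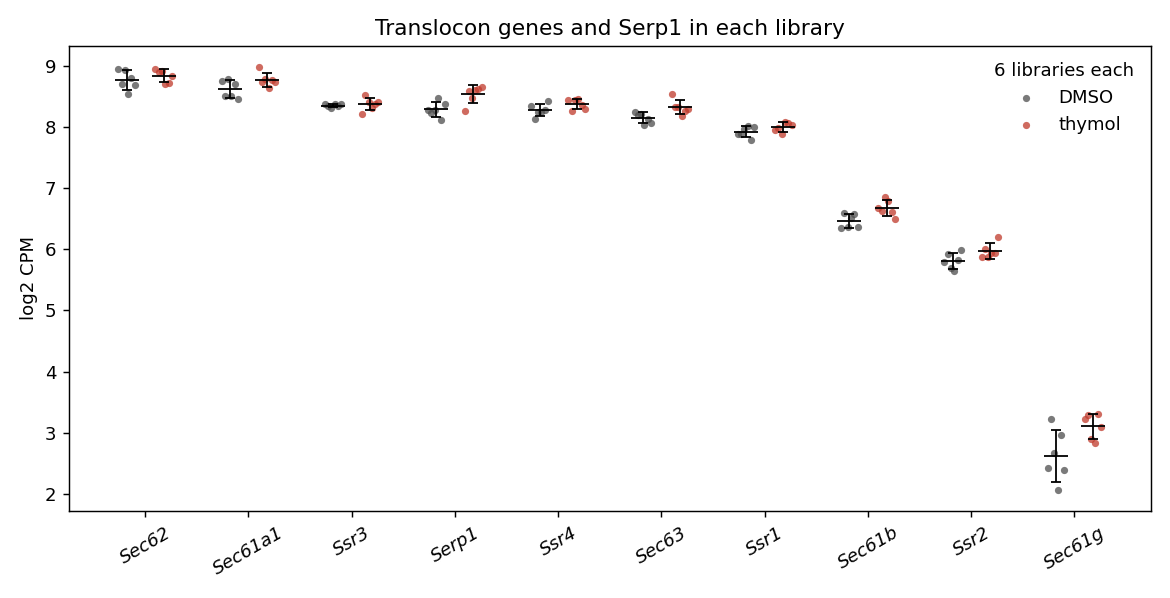
Level of each gene in each library (y axis, log2 CPM), with genes ordered by their DMSO mean along the x axis; dots are libraries (6 DMSO in grey, 6 thymol in red), and black bars show the mean and SD of a group. The upper 7 genes lie close together, Sec61b and Ssr2 lie lower, and Sec61g, at 2.63 in DMSO, lies far below the rest.

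The contrast of thymol with DMSO was the one the genes were chosen on. All 10 genes had a higher mean in thymol, by 0.02 to 0.48 log2 units, with a median of 0.16. Over all 10697 genes the median difference was 0.0026, and 50.9% of genes lay above 0. In the limma fit over all genes 1 of the 10 members, Serp1, passed an adjusted p of 0.05, where 2.22% of all genes passed in either direction and 0.654% passed as higher with thymol. At an unadjusted p under 0.05 there were 4 members (Serp1, Sec61a1, Sec61b and Sec63), all higher, where 11.8% of all genes reached that level and 5.35% did so as higher. In none of the 10 members did the 6 thymol values all lie on one side of the 6 DMSO values, which they did in 1.68% of all genes. Since the set was picked on this contrast, nothing is read from these counts.

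Serp1 ranged from 8.12 to 8.47 log2 CPM in DMSO, with a median of 8.27, and from 8.26 to 8.65 in thymol, with a median of 8.59. Of the thymol libraries 5 of 6 lay above the highest DMSO library, the lowest of these by a narrow margin, while thymol 1 (8.26) lay below the DMSO median. The difference was 0.24 ± 0.06 (SE of the fit, n = 6 per group), or 1.18-fold. Without DMSO replicate 5, the lowest DMSO library, it was 0.21, and without thymol replicate 1 it was 0.30. The observed SD of Serp1 was 0.12 in DMSO and 0.15 in thymol. Serp1 no longer passed the threshold without DMSO replicate 5, thymol replicate 2 or thymol replicate 6. With no mean-variance trend in the fit it did not pass either, at the same difference. Nor did it pass in the odd-numbered libraries alone (0.23, against 0.26 in the even-numbered ones, where it passed).

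The 3 subunits of the channel were all higher on average. Sec61a1, the pore itself, ranged from 8.45 to 8.79 (median 8.60) in DMSO and from 8.63 to 8.97 (median 8.75) in thymol. Only thymol 1 lay above the DMSO range, and the difference was 0.15 ± 0.06, or 1.11-fold. In Sec61a1 the odd-numbered libraries lay above the even-numbered ones without overlap in both groups, by 0.26 in DMSO and 0.14 in thymol. Sec62 showed such a split in DMSO, and Ssr2 showed one in thymol with the odd-numbered libraries lower (-0.16). With so few libraries a split can arise by chance, and the share of all genes with one was not computed. The labels do not say what odd and even numbers stand for. Between treatments, Sec61a1 differed by 0.09 in the odd-numbered libraries and by 0.22 in the even-numbered ones.

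Sec61b, the beta subunit, ranged from 6.34 to 6.59 (median 6.44) in DMSO and from 6.50 to 6.86 (median 6.64) in thymol. Again 5 of 6 thymol libraries lay above the DMSO range, the exception being thymol 6, and the difference was 0.22 ± 0.08, or 1.16-fold. Sec61g, the gamma subunit, ranged from 2.07 to 3.23 (median 2.55) in DMSO and from 2.83 to 3.30 (median 3.17) in thymol. Its difference of 0.48 ± 0.24 is the largest of the set and also the least certain. Counting error alone gives an SD of about 0.21 at its depth, the SD within groups was 0.33, and the difference was 0.20 once 10 CPM was added before the logarithm.

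Of the 2 partners that work with the channel after synthesis, Sec63 differed more. Sec63 ranged from 8.03 to 8.25 (median 8.16) in DMSO and from 8.18 to 8.53 (median 8.31) in thymol. Here 5 of 6 thymol libraries lay above the DMSO range, all but thymol 4, and the difference was 0.17 ± 0.06, or 1.13-fold. It was 0.17 in the odd-numbered and 0.17 in the even-numbered libraries. Sec62 ranged from 8.53 to 8.94 (median 8.75) in DMSO and from 8.69 to 8.94 (median 8.86) in thymol, with nearly full overlap. Its difference of 0.07 ± 0.06 had no stable sign, since it was -0.03 in the odd-numbered and 0.17 in the even-numbered libraries. In DMSO its odd-numbered libraries lay above the even-numbered ones without overlap, by 0.25, and in thymol the 2 overlapped.

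The 4 genes of the TRAP complex differed by 0.02 to 0.16. Ssr2, the beta subunit, had the widest difference, from 5.64 to 5.99 (median 5.81) in DMSO to 5.87 to 6.20 (median 5.94) in thymol, a difference of 0.16 ± 0.09. Ssr4, the delta subunit, ranged from 8.12 to 8.42 in DMSO and from 8.25 to 8.45 in thymol, a difference of 0.10 ± 0.06. Ssr1, the alpha subunit, ranged from 7.79 to 8.01 in DMSO and from 7.88 to 8.08 in thymol, a difference of 0.07 ± 0.06. The groups overlapped for all 3 genes.

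Ssr3, the gamma subunit, had nearly the same mean in both groups, 8.35 in DMSO and 8.37 in thymol, and a difference of 0.02 ± 0.05. Its spread was unequal, with an SD of 0.027 among the DMSO libraries (8.30 to 8.37) and 0.105 among the thymol libraries (8.20 to 8.52). In thymol 4 libraries lay above the whole DMSO range and 1, thymol 1, lay below it. No test of the spread was run.

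**Figure D2:**
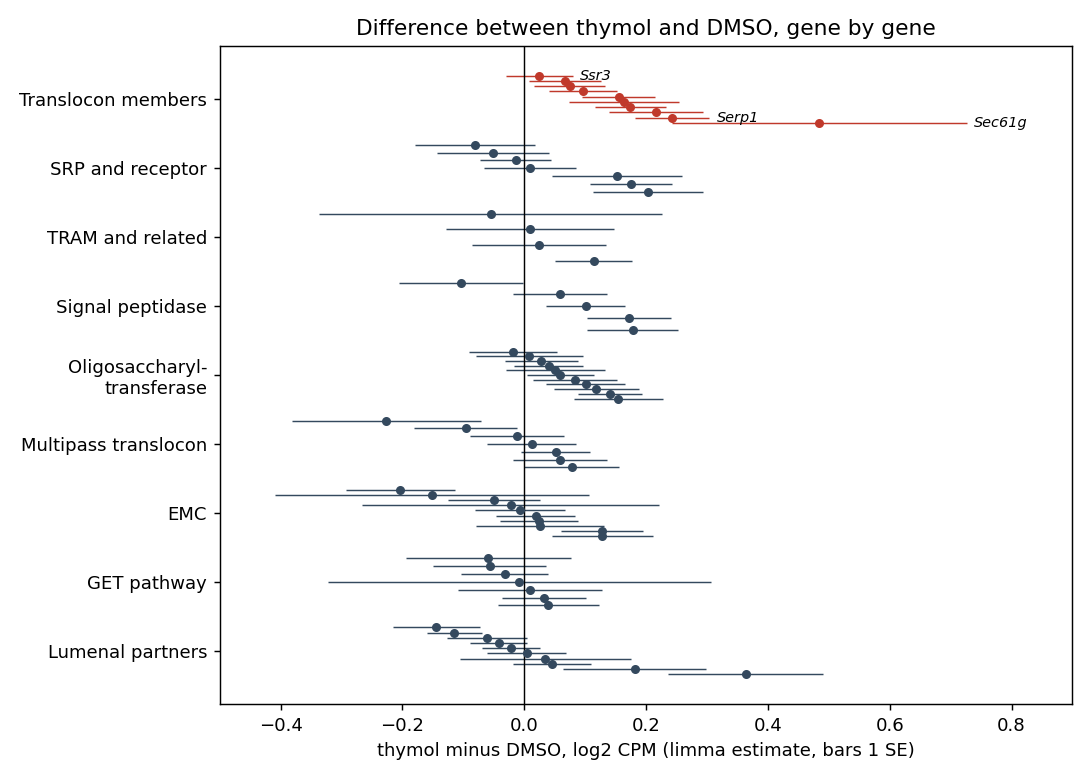
Difference between thymol and DMSO (x axis, log2 CPM, thymol minus DMSO) for each gene, with bars of 1 SE from the limma fit over all genes; rows group the 10 members (red) and the 8 groups of other ER entry genes (dark). The members, chosen on this contrast, all lie right of 0, from 0.02 for Ssr3 to 0.48 for Sec61g, while the groups below spread to both sides.

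The level of fibroblast markers differed between the groups as well. The summed level of the 11 fibroblast markers was 13.92 to 14.02 log2 CPM in the DMSO libraries and 13.84 to 13.90 in the thymol libraries, without overlap, and 2 of the 11 passed as lower. The 12 macrophage markers summed to 13.83 to 13.97 in DMSO and 13.84 to 14.12 in thymol, with overlap, and 2 passed as lower. The mean over the same 12 macrophage markers, to which each gene contributes equally, was 7.87 ± 0.04 in DMSO and 7.79 ± 0.04 in thymol (SD, n = 6 each), so it was lower in thymol while the highest sum was in thymol. The 2 adipocyte markers with values, Fabp4 and Lpl, summed to 8.53 to 8.79 in DMSO and 9.69 to 9.92 in thymol, without overlap, and 1 passed as higher. The 2 muscle markers with values, Des and Acta1, summed to 7.05 to 7.32 in DMSO and 6.54 to 6.97 in thymol, without overlap, and 1 passed as lower. Of all 10697 genes, 168 passed as lower with thymol and 70 as higher. The part of the cell-type markers in the differences of the members was not tested.

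The wider machinery of ER entry was examined through 66 listed genes in 8 groups, of which 61 had values. None of the 61 passed an adjusted p of 0.05 in limma. In this list 7 genes were higher and 3 were lower at an unadjusted p under 0.05, where 5.35% and 6.44% of all genes were. The voom alternative passed 0 of the 61 as well. The median difference of the list was 0.02 and 38 of 61 genes lay above 0. The oligosaccharyltransferase, the enzyme that attaches N-glycans to chains leaving the channel, had 10 of 11 genes above 0, with a median of 0.06. The ER membrane protein complex and the lumenal chaperone partners each had 5 of 10 above 0.

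In each group the gene with the smallest p is given, as the rule for named genes asked. Rpn1, an oligosaccharyltransferase subunit beside the channel, ranged from 8.31 to 8.49 in DMSO and from 8.50 to 8.67 in thymol, and was the 1 gene of the 61 whose groups did not overlap, where 1.68% of all genes had that pattern. Its difference was 0.14 ± 0.05 (limma adjusted p = 0.197). Srp72, a protein of the signal recognition particle, differed by 0.18 ± 0.07 (limma adjusted p = 0.213), but by 0.01 in the odd-numbered and 0.34 in the even-numbered libraries. Spcs2, of the signal peptidase, differed by 0.17 ± 0.07 (limma adjusted p = 0.249). Tram1, which sits beside the channel, differed by 0.11 ± 0.06 (limma adjusted p = 0.499), by 0.07 without DMSO replicate 1, and by 0.21 in the odd-numbered against 0.02 in the even-numbered set. On the other side lay Wdr83os, of the multipass translocon, at -0.23 ± 0.16 (limma adjusted p = 0.635), Emc2, of the ER membrane protein complex, at -0.20 ± 0.09 (0.319), and Ubl4a, of the route for tail-anchored proteins, at -0.06 ± 0.09 (0.904).

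Of the 10 lumenal chaperone partners 1 was higher and 2 were lower at an unadjusted p under 0.05, where 5.35% and 6.44% of all genes were. None passed after adjustment, and the other 7 partners lay between -0.06 and 0.18. Dnajb9, a lumenal cochaperone and a known target of the unfolded protein response, had a difference of 0.36 ± 0.13 (limma adjusted p = 0.146). Hspa5, which encodes BiP, had a difference of -0.12 ± 0.05 (limma adjusted p = 0.238), and Dnajb11, another cochaperone of BiP, -0.14 ± 0.07 (limma adjusted p = 0.420). Hspa5 and Dnajb11 were named after their values were seen.

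Library-to-library variation within a treatment was independent of the contrast used to choose the genes, because each library was set against the mean of its own group. The correlations below run over the 12 libraries, share scaling and depth within each library, and are descriptions with no p. Of the 45 pairs of members 16 had a positive r and the median was -0.13, so the 10 genes did not vary as a block. One set of 3 did. Sec61a1 with Sec62 (r = 0.82), Sec61a1 with Sec63 (r = 0.81) and Sec62 with Sec63 (r = 0.81) were high together and low together. Libraries DMSO 1, DMSO 3 and thymol 1 were high for all 3 genes, and DMSO 4, DMSO 6 and thymol 4 were low. When libraries were also centred within odd and even numbers, r was 0.61, 0.84 and 0.83 in the same order.

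Serp1 ran against these 3 genes, with r = -0.77 for Sec63, -0.67 for Sec61a1 and -0.59 for Sec62. It ran with Ssr1, at r = 0.74, and with Ssr3, at r = 0.58. Thymol 1, the library with the lowest Serp1 of its group and the highest Sec61a1 and Sec63 of all 12, weighed on some of these values. Without it r was -0.55 for Sec63, -0.48 for Sec61a1, -0.56 for Sec62 and 0.86 for Ssr1, but 0.12 for Ssr3. With all libraries centred also within odd and even numbers, r was -0.66 for Sec63, -0.47 for Sec61a1 and -0.45 for Sec62. It was then 0.64 for Ssr1 and 0.48 for Ssr3. Serp1 and Ssr1 had r = 0.92 over the 6 DMSO libraries and 0.59 over the 6 thymol libraries, and their log2 difference in DMSO was 0.37 ± 0.06 (SD, n = 6). The spread of Serp1 within groups, an SD of 0.13, was 4.50 times what counting its reads would give, and that of Sec61a1 was 4.84 times.

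**Figure D3:**
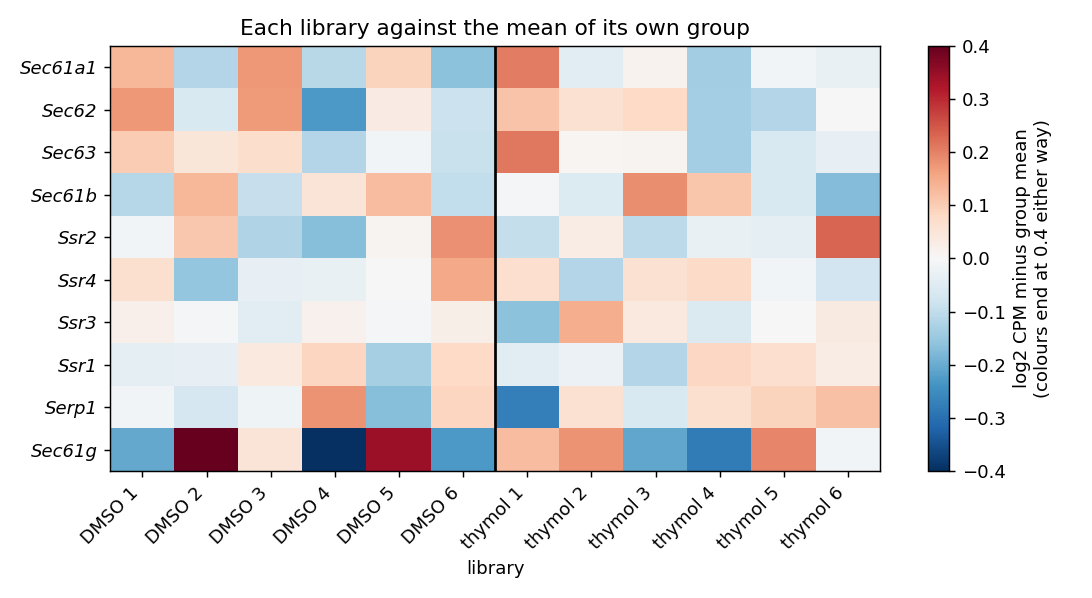
Heat map of the 10 genes (rows) in the 12 libraries (columns, split by treatment), coloured by log2 CPM minus the mean of the library's own group; colours end at 0.4 in either direction. Sec61a1, Sec62 and Sec63 share their pattern across libraries (r of 0.81 to 0.82), Serp1 shows the opposite in thymol 1 and DMSO 4, and Sec61g, with few reads, varies most.

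**Figure D4:**
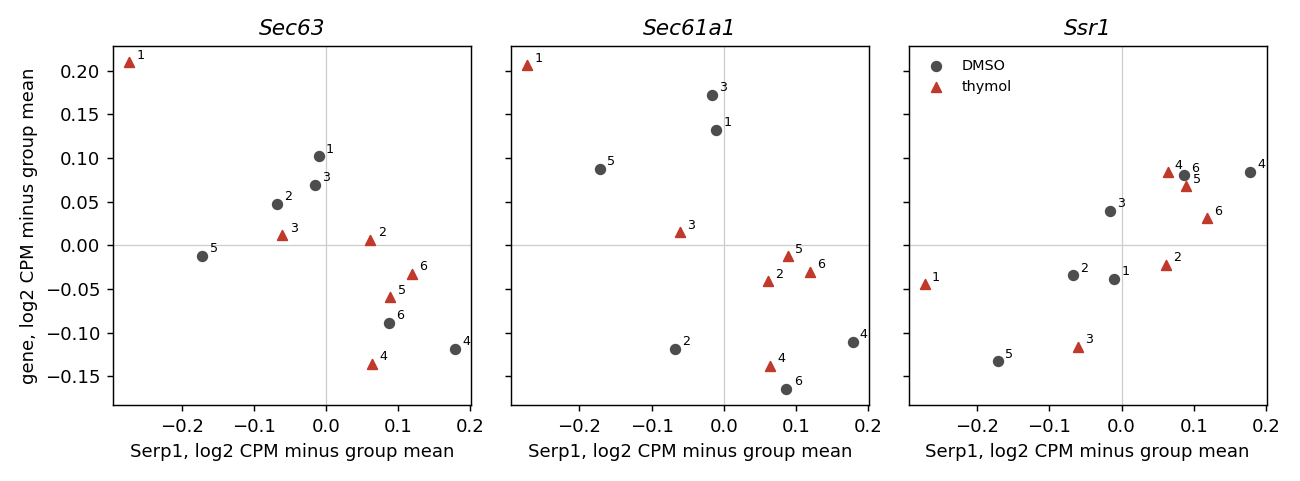
Serp1 (x axis) against Sec63, Sec61a1 and Ssr1 (y axis of each panel), all as log2 CPM minus the group mean; each of the 12 points is a library with its number, DMSO as grey circles and thymol as red triangles. Sec63 and Sec61a1 fall as Serp1 increases (r = -0.77 and -0.67), Ssr1 increases (r = 0.74), and thymol 1 lies at the far left of each panel.

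The genes whose within-group pattern was most like that of Serp1 were sought among the other 5393 genes with a mean of at least 5 log2 CPM. The 5 highest were Ext2 (r = 0.94), a heparan sulfate polymerase subunit, Tap2 (0.94), a subunit of the antigen peptide transporter of the ER membrane, Rnf5 (0.91), an ER-membrane ubiquitin ligase, Plscr3 (0.88) and Pcyox1l (0.88). None of these 5 passed an adjusted p of 0.05 between thymol and DMSO in limma or in voom, 1 of them (Plscr3) had an unadjusted p under 0.05, and all 5 had a lower mean in thymol, by 0.04 to 0.24. Without thymol 1 their r with Serp1 was between 0.75 and 0.92, over libraries that had also been used to pick them. These genes, and those at the opposite end below, were picked as the extremes of 5393 values. How large such extremes would be by chance alone was not tested. Among the members, Ssr1 stood 87th from the top of this ranking and Sec63 67th from the bottom.

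The 2 genes at the opposite end were Col1a1 (r = -0.93) and Emc3 (r = -0.92), and without thymol 1 their r was -0.89 and -0.86. Col1a1, which encodes the main collagen chain secreted through this route, ranged from 11.88 to 12.07 in DMSO and from 11.62 to 11.80 in thymol, without overlap. Its difference was -0.28 ± 0.04 and it passed in limma (adjusted p = 2.9e-05). Emc3, the insertase subunit of the ER membrane protein complex, differed by -0.05 ± 0.08 (limma adjusted p = 0.888), but by -0.0068 when thymol replicate 6 was left out and by -0.0996 when thymol replicate 1 was. The mean of the fibroblast markers, which include Col1a1, had an r of -0.63 with Serp1, -0.60 with Ssr1 and 0.57 with Sec61a1 within groups. The mean of the 2 muscle markers had an r of -0.66 with Serp1, -0.75 with Ssr3 and 0.59 with Sec63, and that of the macrophage markers had -0.66 with Ssr3, 0.57 with Ssr4 and -0.22 with Serp1. These values were picked from those of the 10 members with 7 marker lists. Other lists, with few genes in the data, reached similar size. Examples are 0.69 for Schwann cell markers with Sec62, 0.60 for adipocyte markers with Ssr2 and -0.58 for the keratinocyte marker with Ssr2. The part of cell makeup in these patterns was not tested.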

How the data were processed

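Transcripts of 12 libraries (6 thymol, 6 DMSO) were read by QuantSeq FWD, a 3′ method that gives about 1 read per transcript, from total RNA and after PCR. The authors aligned to GRCm38 with STAR 2.5.3, counted with HTSeq 0.6.1, dropped genes with few reads or no annotation, scaled by the trimmed mean of M-values and deposited log2 CPM values. The strand setting of the counting is not given in the sources used here. The scaling makes values relative within a library, and PCR reads are not independent molecules, so read totals cover counting error only.

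Whole reads were recovered from the steps of the deposited log2 values; for values under 200 reads, 100% came out within 0.02 of a whole number, with a prior count of 1.96 reads. Differences are thymol minus DMSO from limma 3.58.1 in R 4.3.3 (trend, no covariate, two-sided, Benjamini-Hochberg over 10697 genes, threshold 0.05), a test chosen because the values are log2 and not counts. In the 30 pairs of libraries within a group, none looked like 1 library deposited again, since each pair differed by more than counting noise. Fits and read recovery were tested on simulated data. Centred correlations, promoters (RefSeq) and 60-base windows (GENCODE vM21) were computed in Python 3.11.15.

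The members and lists were chosen with earlier results of these data known. The named genes are the 10 members, the ER entry genes past the threshold and the gene with the smallest p in each of its 8 groups, and the 5 highest and 2 lowest correlations with Serp1 among genes of mean log2 CPM of at least 5. The alternatives were 23 refits: other scalings, pseudocounts of 1 and 10 CPM, a filter, no trend, voom on the recovered reads, the replicate number as a block, odd or even numbers, and leaving out each library. The correlations without thymol 1 and within odd and even numbers were added after seeing the data.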

Additional observations from a re-analysis of the deposited data

Results flagged for a closer look

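Among 56 groups of 6 libraries examined (the named genes, 2 marker means and the read totals), 8 held a library whose gap to its nearest neighbour took up more of the group's range than Dixon's 95% limit allows, where chance gives about 1 in 20 groups, or 2.8. None of the 8 was a member. In the thymol group, thymol 1 was low for Rnf5 (5.277, next 5.827 log2 CPM) and Tap2 (5.236, next 5.842), both chosen for their likeness to Serp1, which was lowest in the same library. In the DMSO group, DMSO 4 was high for Pcyox1l (6.358, next 6.044), also chosen for that likeness, and low for Rpn1 (8.315, next 8.428). Thymol 5 was low for Srp72 (7.675, next 7.985), thymol 2 was low for Tram1 (7.503, next 7.642) and DMSO 6 was low for Ubl4a (5.983, next 6.092). Thymol 5 was also the deepest library of its group, with 9049796 recovered reads against 6585162 in the next.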

How the results depend on the processing

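Of the 10 members, 8 stayed above 0 in every alternative that could be run. The members were picked on this contrast, so nothing is read from that count. Some refits also leave a difference as it is by design. With the filter, with no trend, with odd or even number as a term and with the block, Serp1 stayed at 0.2425. Sec62 turned to -0.033 in the odd-numbered libraries alone, and Ssr3 to -0.0053 there and to -0.0046 without thymol replicate 2 (up to 0.0578 without thymol replicate 1). Serp1 passed in 18 of 23 refits, with differences of 0.21 to 0.30 when a library was left out. The number of members that passed was 0 with no mean-variance trend, 0 in the odd-numbered libraries alone and 0 to 1 when each library was left out in turn. Over all genes 238 passed, against 57 with no trend, 70 in the odd-numbered libraries and 172 to 270 when each library was left out. Of the 61 ER entry genes 1, Srp72, passed in the even-numbered libraries alone (0.34, against 0.014 in the odd-numbered ones), and 0 to 1 when each library was left out, the 1 being Srp72 without thymol replicate 5 (0.24). The cause of these shifts was not tested, and the odd and even sets also hold fewer samples. With the replicate number as a block 332 genes passed and 2 members, Serp1 and Sec63 (0.17). The labels do not say whether equal numbers mark pairs. After centring on group means, same-numbered libraries had r of -0.05 to 0.27, 2 of 6 above 0.1, and 1 of 6 was most like its own number. So few values cannot decide whether the libraries were paired. The block changed no other call among the members or the ER entry list. Other turns of sign were small: in the even-numbered libraries Ext2 (0.010), Pcyox1l (0.039) and Ubl4a (0.067); leaving out each library gave -0.0819 to 0.0142 for Ext2, -0.0942 to 0.0298 for Pcyox1l, -0.1995 to 0.0278 for Rnf5, -0.1311 to 0.054 for Tap2 and -0.1165 to 0.0043 for Ubl4a, with the turn from leaving out thymol replicate 1 (Ubl4a, thymol replicate 5; Pcyox1l, DMSO replicate 4 as well). Col1a1 did not pass with no trend (-0.28) or in the odd-numbered libraries alone (-0.27). Sec61g had no value under the filter on mean level. Depth limits Sec61g most, at 26 to 87 reads.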
